A study of Mus musculus with 16 samples.

Results

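Gene expression with c-JunDN, a dominant-negative form of the transcription factor c-Jun, was compared with that of DR in mouse embryonic fibroblasts (MEF). The comparison rests on 2 of the 16 samples of the series, 1 library of MEF over-expressing c-JunDN and 1 of MEF over-expressing DR. Both came from OG2 transgenic embryos of a mixed 129SVJ, C57B6 and CBA background and were taken at passage 2. The labels do not spell out DR, do not say which part of c-Jun the c-JunDN form lacks, and give no time after over-expression. OG2 cells carry a reporter of the pluripotency gene Oct4, and every MEF library named below shares that background. Of 20325 genes in the tables, 11030 reached 5 CPM, counts scaled to 1000000 a library, in 1 of the 2 libraries at least and are called measured. The change of a gene is the log2 ratio of its CPM plus 1 in c-JunDN over DR, and a gene counts as higher or lower once that ratio reaches 2-fold. Folds printed for single genes are plain ratios of CPM. Libraries of MEF over-expressing c-Jun or Jdp2, of wild-type MEF and of MEF taken at day 3 of a reprogramming experiment, 1 library each, are set beside these values where stated.

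AP-1 is a family of dimeric transcription factors built from Jun, Fos, Atf and Jdp2 proteins, which bind the heptamer TGACTCA and, for some dimers, the octamer TGACGTCA. The series as a whole asks how c-Jun stands in the way of reprogramming fibroblasts, and c-JunDN is its counter-test. A dominant-negative Jun pairs with its partners but does not activate transcription as the whole protein does. In fibroblasts AP-1 is known for its part in the response to serum, injury and inflammatory signals, and for driving proteases that remodel the extracellular matrix, such as stromelysin and collagenase. Embryonic fibroblasts themselves are matrix-producing mesenchymal cells, rich in collagens and fibronectin.

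With c-JunDN, 358 genes were higher (3.25% of the measured genes) and 299 were lower (2.71%), together 5.96%, and the median change over all measured genes was 0.0076. The shares of 3.25% higher and 2.71% lower are the background for the count of calls in each list below. The c-JunDN library held 2472474 counts over genes and the DR library 2094306, so that 3 counts stand for 1.23 CPM and 1.45 CPM. With 1 library a side there is no spread between cultures and no test, and every interval in brackets is an exact conditional 95% interval of the ratio of 2 counts, which covers counting error only. This interval excluded 1 for 334 of the 358 higher and 278 of the 299 lower genes. Of the called genes, 64 higher and 80 lower ones had 20 CPM or more in both libraries, and the rest were at lower levels in 1 of them at least. Among the rest, 192 higher genes were under 5 CPM with DR and 123 lower genes were under 5 CPM with c-JunDN. These were measured only through the library where they were high. Nearest the 2-fold line, Hes6 and Ptprd lay just inside on the higher side and Bpnt1 and Nrk just outside, while Eme1 and Tyw3 lay just inside on the lower side and Pde3b and Prdm10 just outside.

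**Figure D1:**
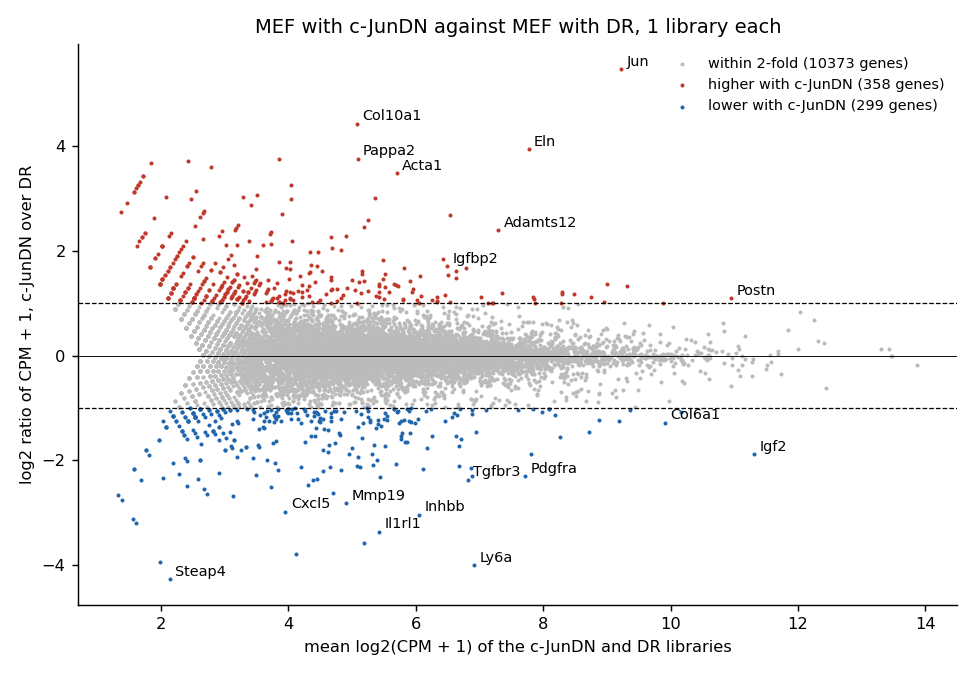
Change of each of the 11030 measured genes, with 1 point a gene: the x axis is the mean log2 of CPM plus 1 over the 2 libraries and the y axis the log2 ratio of c-JunDN over DR. Dashed lines mark 2-fold, and the labelled genes show the isolated position of Jun at 5.47 and the spread of Eln, Col10a1, Ly6a and Inhbb from the bulk of genes near 0.

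Fibroblast markers stood at similar levels in both libraries. All 10 fibroblast markers were measured, with a summed level of 48609 CPM with c-JunDN and 50640 CPM with DR. Col1a1, a chain of the main fibrillar collagen, had 11306 CPM with c-JunDN and 11350 CPM with DR, and the intermediate filament gene Vim had 3401 CPM with c-JunDN and 3218 CPM with DR. Of these markers Postn was called higher and Pdgfra lower, and both are described below. Keratinocyte markers summed to 44.7 CPM with c-JunDN and 35.3 CPM with DR, with Krt6a, Krt6b, Krt16 and Krt17 at 0 counts in both libraries. Endothelial markers summed to 209 CPM with c-JunDN and 157 CPM with DR, and Cdh5, Tie1 and Cldn5 had no counts in either library. Of 5 measured endothelial markers Flt1 and Emcn were higher and Egfl7 and Ecscr lower. Macrophage markers summed to 468 CPM with c-JunDN and 357 CPM with DR, against 287 CPM in wild-type MEF. Of 31 macrophage genes 18 were measured, 7 of them higher and 1 lower, all 8 at no more than 13.5 CPM in either library. A gene low in 1 of the libraries is measured only through the other, so counts over lists of low genes, this one among them, give a direction no support. C1qa, a chain of the complement C1q complex, had 11.1 CPM with c-JunDN and 3.87 CPM with DR, and the lysozyme gene Lyz2 had 118 CPM with c-JunDN and 60.9 CPM with DR. The scavenger receptor gene Cd163 had no counts with c-JunDN, and Pf4 and Ms4a7 had none with DR. The part of such cells in other results was not tested. In bulk RNA, fewer cells of a type and less RNA per cell cannot be told apart.

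Jun itself was the measured gene with the largest change, 5.47. It had 3968 CPM in the c-JunDN library and 88.5 CPM with DR, 44.8-fold higher (38.7 to 52.2), against 11965 CPM in the library over-expressing c-Jun, 67.5 CPM with Jdp2 and 61.1 CPM in wild-type MEF. Transcripts of the introduced c-JunDN and of the cell's own Jun gene cannot be told apart in a count per gene, so the value is their sum. Of the 19 measured AP-1 family genes, Jun was called higher, none was called lower and the median change was -0.22. Fosl2, a Fos family partner of c-Jun, had 136 CPM with c-JunDN and 259 CPM with DR, 1.90-fold lower (1.65 to 2.18). Junb had 36.5 CPM with c-JunDN and 55.1 CPM with DR, and Jund had 99.3 CPM with c-JunDN and 133 CPM with DR. Fos stood at 12.7 CPM with c-JunDN and 14.0 CPM with DR, and Jdp2, a repressor that pairs with c-Jun, at 101 CPM with c-JunDN and 76.9 CPM with DR. Fosl1 had 0 counts with c-JunDN and 4 counts with DR, too few to be measured. The measured family genes other than Jun stayed within 2-fold, with 12 of the 19 below 0 and 7, Jun among them, above.

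Of 22 measured genes known as AP-1 targets 7 were lower (31.8%, against 2.71% of all measured genes) and 1 was higher, with a median change of -0.27. The lower ones were Mmp3, Mmp13, Timp1, Plau, Plaur, Ccl2 and Spp1, and the higher one was Mmp9. The day 3 reprogramming pair of c-JunDN and DR, described below, did not repeat this. There 22 genes of the list were measured, 2 higher and 1 lower, with a median of 0.19, against 0.05 over all genes. Matrix metalloproteinases, enzymes that cut matrix proteins, are on that list in part. Mmp3, stromelysin-1, had 3.69 CPM with c-JunDN and 16.9 CPM with DR, 4.58-fold lower (2.16 to 10.8). Mmp13, an interstitial collagenase, had 10.7 CPM with c-JunDN and 22.7 CPM with DR, 2.13-fold lower (1.29 to 3.58). Mmp12, the macrophage elastase, had 2.46 CPM with c-JunDN and 7.25 CPM with DR, 2.95-fold lower (1.08 to 9.27). All of these were low in both libraries. The widest gap among metalloproteinases was at Mmp19, with 10.3 CPM with c-JunDN and 78.8 CPM with DR, 7.69-fold lower (5.02 to 12.2); the gene overlaps Tmem198b, and without strand in the counts their reads may mix. Timp1, an inhibitor of these enzymes that lies inside Syn1, had 81.2 CPM with c-JunDN and 168 CPM with DR. Mmp9, gelatinase B, went the other way at 19.7 CPM with c-JunDN and 2.90 CPM with DR, 6.79-fold higher (2.90 to 19.4). Of the uncalled members, Mmp2 and Mmp14 were among those close to 0, while Adam8 and Adam19 lay above it, at 0.90 and 0.68. Timp3 lay below it at -0.66, with 443 CPM with c-JunDN and 702 CPM with DR. Mmp2, gelatinase A, had 871 CPM with c-JunDN and 759 CPM with DR, and Mmp14, the membrane-bound protease that activates it, had 1119 CPM with c-JunDN and 1145 CPM with DR. Over the 17 measured metalloproteinase and inhibitor genes, 5 were lower, 1 was higher and the median was -0.03. In the reprogramming pair 14 were measured, 1 higher and none lower, with a median of 0.49.

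Urokinase and its receptor, which turn plasminogen into the broad protease plasmin at the cell surface, were both lower in MEF. Plau, urokinase, had 16.4 CPM with c-JunDN and 58.0 CPM with DR, 3.54-fold lower (2.45 to 5.19). Its receptor Plaur had 6.15 CPM with c-JunDN and 17.9 CPM with DR, 2.91-fold lower (1.56 to 5.70). The coagulation starter F3, tissue factor, had 135 CPM with c-JunDN and 277 CPM with DR. These 3 were the called genes among 11 measured genes of the plasminogen list, whose median was -0.44. Spp1, osteopontin, had 179 CPM with c-JunDN and 528 CPM with DR, 2.95-fold lower (2.64 to 3.31). In a further list, of ADAMTS, ADAMTS-like and pappalysin genes, most calls were in the other direction. Of its 16 measured genes 4 were higher (25%, against 3.25% of all measured genes) and 1 was lower. The higher ones were Adamts12, Adamts14, Pappa2 and the ADAMTS-like gene Adamtsl1, and the lower one was the ADAMTS-like gene Adamtsl3. Adamts12, which cuts cartilage matrix protein, had 358 CPM with c-JunDN and 67.2 CPM with DR, 5.32-fold higher (4.45 to 6.41). Pappa2, a protease of IGF-binding proteins, had 124 CPM with c-JunDN and 8.22 CPM with DR, 15.1-fold higher (9.29 to 26.3).

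The AP-1 heptamer lay close to the start site of several of these genes. The windows below run from 250 bases before to 50 bases after the annotated start, are taken from RefSeq on GRCm38 and are written 5' to 3' on the gene's strand, with the heptamer TGACTCA or its reverse complement TGAGTCA in capitals. Mmp3, Mmp13 and Plaur are shown as known AP-1 targets that were lower, Col6a1 and Ecm1 as matrix genes that were lower, and Igfbp2 as a gene that was higher. All were picked because their windows hold the heptamer. No window with it was found for Timp1, Plau, Ccl2 and Spp1, the other AP-1 targets that were lower, nor for Mmp19.
Mmp3, chr9:7445572-7445871, plus strand: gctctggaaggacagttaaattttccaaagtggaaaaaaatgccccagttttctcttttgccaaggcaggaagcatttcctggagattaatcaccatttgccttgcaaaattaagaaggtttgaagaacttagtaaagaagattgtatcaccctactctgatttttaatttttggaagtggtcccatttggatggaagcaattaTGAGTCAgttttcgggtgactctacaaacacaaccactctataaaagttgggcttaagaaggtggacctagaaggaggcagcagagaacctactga
Mmp13, chr9:7272264-7272563, plus strand: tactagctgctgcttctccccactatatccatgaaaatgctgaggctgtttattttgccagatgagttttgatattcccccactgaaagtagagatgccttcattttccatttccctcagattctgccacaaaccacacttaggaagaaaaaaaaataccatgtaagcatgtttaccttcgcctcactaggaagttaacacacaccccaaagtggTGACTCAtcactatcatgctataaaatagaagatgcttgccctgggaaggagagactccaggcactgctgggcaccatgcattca
Plaur, chr7:24462233-24462532, plus strand: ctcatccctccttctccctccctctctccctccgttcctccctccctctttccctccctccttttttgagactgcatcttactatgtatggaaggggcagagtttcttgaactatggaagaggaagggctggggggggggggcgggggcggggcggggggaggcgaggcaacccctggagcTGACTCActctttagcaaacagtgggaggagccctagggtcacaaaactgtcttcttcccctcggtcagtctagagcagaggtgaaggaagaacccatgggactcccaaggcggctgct
Col6a1, chr10:76725995-76726294, minus strand: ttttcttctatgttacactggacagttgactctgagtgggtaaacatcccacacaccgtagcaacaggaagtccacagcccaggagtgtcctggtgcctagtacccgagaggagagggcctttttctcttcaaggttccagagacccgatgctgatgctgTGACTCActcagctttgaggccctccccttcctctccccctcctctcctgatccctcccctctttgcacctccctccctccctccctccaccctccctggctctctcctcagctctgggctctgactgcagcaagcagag
Ecm1, chr3:95739520-95739819, minus strand: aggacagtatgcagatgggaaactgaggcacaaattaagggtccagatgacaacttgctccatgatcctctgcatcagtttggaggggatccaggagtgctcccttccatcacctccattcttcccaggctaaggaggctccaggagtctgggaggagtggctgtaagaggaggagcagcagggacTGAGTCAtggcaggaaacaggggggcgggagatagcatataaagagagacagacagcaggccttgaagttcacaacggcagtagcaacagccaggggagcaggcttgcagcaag
Igfbp2, chr1:72825137-72825436, plus strand: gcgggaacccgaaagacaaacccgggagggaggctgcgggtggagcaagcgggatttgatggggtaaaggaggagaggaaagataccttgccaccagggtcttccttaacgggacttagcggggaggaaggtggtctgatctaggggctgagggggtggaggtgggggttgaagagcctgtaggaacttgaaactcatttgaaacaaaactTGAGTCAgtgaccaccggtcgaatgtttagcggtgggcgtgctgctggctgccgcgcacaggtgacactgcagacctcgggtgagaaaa
The first base of the heptamer lay 46 bases before the start of Mmp3, 35 before that of Mmp13, 69 before that of Plaur, 90 before that of Col6a1, 64 before that of Ecm1 and 39 before that of Igfbp2.

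Both strands of all such windows were searched for the heptamer. It was found for 30 of the 229 lower genes that had a window (13.1%), for 12 of the 262 higher genes (4.58%) and for 387 of the 8819 measured genes (4.39%). The reference holds 32851 windows in all. Counted the other way, 7.75% of the 387 measured genes with the heptamer were lower and 3.10% higher, against 2.36% lower and 2.96% higher among the 8432 without it. The median change differed little, at -0.051 with the heptamer and 0.006 without it. In the reprogramming pair described below it was -0.002 and 0.051. Both groups had similar levels, with a median of 36.8 CPM and 36.3 CPM in the DR library. The octamer TGACGTCA, which does not contain the heptamer, was in the windows of 0 of the 229 lower genes, which allows a share of up to 1.31%. It was in those of 8 higher genes (3.05%) and of 3.58% of the measured genes. Genes with several annotated starts have several windows. Counted per window, the heptamer was in 10.9% of windows of lower genes, 3.87% of those of higher genes and 3.64% of those of measured genes. These are matches of letters and not sites of binding, and a window without a match says only that the letters are not in it. Chromatin immunoprecipitation peaks of the series are on mm9 and were not used here.

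**Figure D2:**
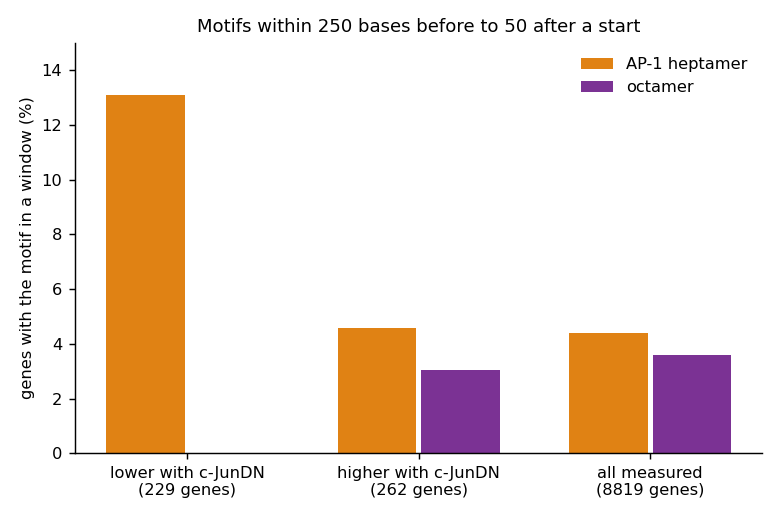
Percent of genes with the heptamer TGACTCA or the octamer TGACGTCA on either strand within 250 bases before to 50 bases after a start site, for the lower, the higher and all measured genes. Bars start at 0; the heptamer stands at 13.1% of lower genes against 4.58% of higher and 4.39% of measured genes.

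Calls among chemokine genes were all in the lower direction. Of 11 measured chemokine genes 6 were lower (54.5%, against 2.71% of all measured genes) and none higher. Some of them reached 5 CPM only through DR, so this share gives a direction no support. Their median change was -1.05, or -0.07 with no minimum and -0.18 against wild-type MEF. Ccl7, an attractant of monocytes, had 18.5 CPM with c-JunDN and 96.2 CPM with DR. Its neighbour Ccl2, which attracts the same cells, had 30.8 CPM with c-JunDN and 91.4 CPM with DR. Cxcl5, an attractant of neutrophils, had 4.51 CPM with c-JunDN and 42.6 CPM with DR, 9.43-fold lower (5.02 to 19.6). Cxcl10 had 17.2 CPM with c-JunDN and 36.8 CPM with DR, and it overlaps Art3. Cxcl12, a homeostatic signal of stromal cells, was level with 608 CPM with c-JunDN and 584 CPM with DR. Wild-type MEF had 35.1 CPM of Ccl2, 26.5 CPM of Ccl7 and 10.9 CPM of Cxcl5, nearer to the c-JunDN library than to DR for each of the 3.

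Of 20 measured cytokine ligands and receptors 5 were lower (25%) and 1 was higher (5%), against 2.71% and 3.25% of all measured genes. The median was -0.64. Il1rl1, the receptor of interleukin-33 and a gene long known as serum-induced in fibroblasts, had 12.3 CPM with c-JunDN and 137 CPM with DR, 11.1-fold lower (7.62 to 16.8). The interleukin-1 receptor gene Il1r1 had 57.0 CPM with c-JunDN and 167 CPM with DR, 2.93-fold lower (2.40 to 3.60). Tnfrsf11b, osteoprotegerin, had 13.9 CPM with c-JunDN and 46.4 CPM with DR. Nfkbiz and Socs3 belong to no list here and were picked with their values already seen. Nfkbiz, an inducible partner of NF-kappaB, had 20.1 CPM with c-JunDN and 82.7 CPM with DR. Socs3, the feedback inhibitor of STAT3 signalling, had 15.2 CPM with c-JunDN and 69.2 CPM with DR, 4.56-fold lower (3.15 to 6.73). The transcription factor gene Cebpb had 20.1 CPM with c-JunDN and 53.7 CPM with DR, and its relative Cebpd had 24.6 CPM with c-JunDN and 66.3 CPM with DR. Wild-type MEF stood below the c-JunDN library for these 3, with 14.2 CPM of Socs3, 15.8 CPM of Cebpb and 7.98 CPM of Cebpd. Ptgs1, cyclooxygenase-1, had 8.62 CPM with c-JunDN and 48.4 CPM with DR, 5.61-fold lower (3.48 to 9.46), whereas the inducible Ptgs2 was level at 36.9 CPM with c-JunDN and 36.3 CPM with DR. Il6 was too low to be measured, with 1.64 CPM with c-JunDN and 3.39 CPM with DR.

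The interferon response did not separate the libraries. Of 31 measured interferon-stimulated genes 1 was lower, Gbp2, and none was higher, with a median of -0.05. Over all 32 genes of the list the summed level was 3162 CPM with c-JunDN and 3207 CPM with DR. It was 420 CPM in wild-type MEF, 266 CPM with c-Jun and 6882 CPM with Jdp2. Isg15, a ubiquitin-like protein induced by interferon, had 249 CPM with c-JunDN and 228 CPM with DR, against 2.07 CPM in wild-type MEF. Both libraries of the pair stood above wild-type MEF on this list. None of the 16 measured genes of antigen presentation by MHC class I was called, and B2m had 667 CPM with c-JunDN and 590 CPM with DR.

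**Figure D3:**
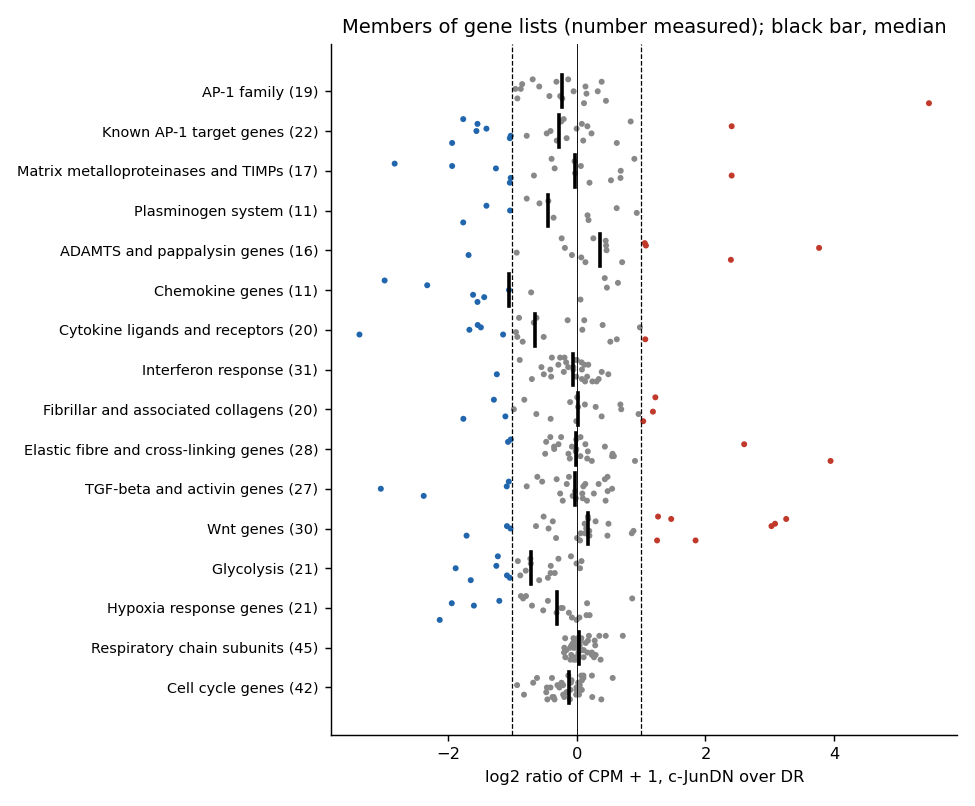
Log2 change of c-JunDN over DR for each measured member of 16 gene lists, 1 point a gene, with the median of each list as a black bar and dashed lines at 2-fold. Chemokines sit lowest with a median of -1.05, glycolysis genes lie to the left of 0 with a median of -0.71, and respiratory chain subunits lie close to 0 with none past 2-fold.

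In the extracellular matrix calls went in both directions within most lists. Eln, elastin, the core protein of elastic fibres, had 855 CPM with c-JunDN and 54.6 CPM with DR, 15.6-fold higher (12.9 to 19.1). Wild-type MEF lay between at 431 CPM. Mfap5, a microfibril protein on which elastin is laid, had 93.1 CPM with c-JunDN and 14.5 CPM with DR, 6.42-fold higher (4.37 to 9.73). Some other parts of the fibre differed little: Fbn1, fibrillin-1, had 2268 CPM with c-JunDN and 2064 CPM with DR, and the cross-linking enzyme gene Lox had 2229 CPM with c-JunDN and 2239 CPM with DR. Of 28 measured elastic fibre and cross-linking genes 2 were higher, Eln and Mfap5, and 2 were lower, Emilin2 and Efemp1, with a median of -0.01.

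Of 20 measured collagens 3 were higher and 3 were lower. Col11a1, a minor fibrillar collagen that sets fibre width, had 711 CPM with c-JunDN and 347 CPM with DR. Col6a1, a chain of the beaded-filament collagen VI, had 617 CPM with c-JunDN and 1506 CPM with DR, 2.44-fold lower (2.29 to 2.60). Col7a1, the anchoring fibril collagen of skin, had 38.2 CPM with c-JunDN and 132 CPM with DR, 3.45-fold lower (2.71 to 4.41). Col3a1 had 4454 CPM with c-JunDN and 6875 CPM with DR, a large difference in level within 2-fold. Outside that list, Col10a1, the collagen of hypertrophic cartilage, had 156 CPM with c-JunDN and 6.29 CPM with DR, 24.9-fold higher (14.4 to 47.1), and it overlaps Nt5dc1 on the genome. Col2a1, the main cartilage collagen, had 82.9 CPM with c-JunDN and 32.4 CPM with DR. Of 11 measured cartilage and bone genes 2 were higher, these 2 collagens, and 2 were lower, Spp1 and Sox9, with a median of -0.45. Sox9, the regulator of cartilage formation, differed in the other direction with 5.33 CPM with c-JunDN and 24.2 CPM with DR, 4.53-fold lower (2.43 to 9.10). Postn, periostin, a matrix protein of tendon, periosteum and healing wounds, had 2883 CPM with c-JunDN and 1351 CPM with DR, 2.13-fold higher (2.04 to 2.23). Ctgf, a matricellular growth factor, had 478 CPM with c-JunDN and 206 CPM with DR. Ogn, a small leucine-rich proteoglycan of the collagen fibre, had 534 CPM with c-JunDN and 236 CPM with DR. Fmod, of the same family, had 117 CPM with c-JunDN and 53.7 CPM with DR. Their relative Podn had 59.1 CPM with c-JunDN and 179 CPM with DR. Itga1, an integrin chain that binds collagen, had 60.3 CPM with c-JunDN and 19.8 CPM with DR. Itga8, an integrin chain that binds nephronectin, had 165 CPM with c-JunDN and 58.0 CPM with DR. Npnt, which encodes that nephronectin, had 55.8 CPM with c-JunDN and 13.1 CPM with DR, 4.27-fold higher (2.81 to 6.72). Fap, a surface protease of activated fibroblasts, had 39.0 CPM with c-JunDN and 9.19 CPM with DR.

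Adhesion and hyaluronan genes held further calls in both directions. Of 28 measured integrins and adhesion receptors 3 were lower, 2 were higher and the median was 0.02. Vcam1, a cytokine-inducible adhesion molecule, had 73.0 CPM with c-JunDN and 203 CPM with DR, 2.77-fold lower (2.32 to 3.33). The sialomucin gene Cd34, a marker of several stromal progenitors, had 15.6 CPM with c-JunDN and 45.0 CPM with DR. The third, Sdc4, a syndecan of focal adhesions, had 40.2 CPM with c-JunDN and 84.6 CPM with DR. Itgb1, the beta chain of most matrix-binding integrins, had 2240 CPM with c-JunDN and 1445 CPM with DR. Has2, the hyaluronan synthase of mesenchyme, had 12.3 CPM with c-JunDN and 28.0 CPM with DR, and Tnfaip6, which remodels hyaluronan in inflammation, had 4.10 CPM with c-JunDN and 14.5 CPM with DR. Of 17 measured basement membrane genes 2 were higher, Npnt and Nid2, none was lower and the median was 0.29, or -0.16 against wild-type MEF. Nid2, nidogen-2, had 441 CPM with c-JunDN and 219 CPM with DR, at the edge of the call, and it overlaps Rtraf. Tnc, tenascin-C, a matrix protein of wounds and tumours, had 5614 CPM with c-JunDN and 3138 CPM with DR, within 2-fold. Ecm1, whose promoter window is shown above, had 65.2 CPM with c-JunDN and 141 CPM with DR, 2.16-fold lower (1.77 to 2.63).

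Genes of the mesenchymal programme, which the series' title ties to c-Jun, were mostly level. Of 26 measured mesenchymal and epithelial-mesenchymal transition genes 2 were lower, S100a4 and Twist2, and 1 was higher, Fap, with a median of 0.02. All 28 genes of the list summed to 7369 CPM with c-JunDN and 7303 CPM with DR. Twist2, a transcription factor of dermal fibroblasts, had 33.2 CPM with c-JunDN and 82.7 CPM with DR, 2.49-fold lower (1.90 to 3.28), and wild-type MEF had 40.2 CPM. Prrx1, a homeobox gene of limb and facial mesenchyme, had 703 CPM with c-JunDN and 545 CPM with DR. The mesenchymal cadherin gene Cdh11 had 1247 CPM with c-JunDN and 1140.3 CPM with DR. Snai2 and Zeb1, repressors of epithelial genes, leaned in opposite directions within 2-fold. Snai2 had 90.3 CPM with c-JunDN and 57.1 CPM with DR, and Zeb1 had 82.9 CPM with c-JunDN and 134 CPM with DR. Of 26 epithelial genes 6 were measured, of which 4 were higher and 1, Krt19, was lower, all at no more than 15.6 CPM. Among 21 measured smooth muscle contractile genes 1 was lower and 1 higher, with a median of -0.27. Csrp1, a LIM protein of the actin cytoskeleton, had 196 CPM with c-JunDN and 428 CPM with DR, and Acta2, smooth muscle actin, had 2173 CPM with c-JunDN and 2841 CPM with DR. Of 24 pluripotency genes 5 were measured, of which 1, Tcfcp2l1, was higher and none lower. Tcfcp2l1 had 5.74 CPM with c-JunDN and 1.45 CPM with DR, and Klf4 had 73.8 CPM with c-JunDN and 120 CPM with DR.

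Growth factor genes differed at a few members of the IGF, PDGF and FGF families. Igf2, the fetal insulin-like growth factor, had 1316 CPM with c-JunDN and 4881 CPM with DR, 3.71-fold lower (3.56 to 3.86). Igf1 had 77.9 CPM with c-JunDN and 25.6 CPM with DR, 3.04-fold higher (2.23 to 4.21). Of 6 measured IGF-binding protein genes Igfbp2 was higher, with 162 CPM with c-JunDN and 48.8 CPM with DR, and Igfbp6 was lower, with 9.85 CPM with c-JunDN and 49.3 CPM with DR. The receptor Igf2r, which clears IGF2, was level at 1443 CPM with c-JunDN and 1403 CPM with DR. Pdgfra, the receptor that marks mesenchymal progenitors, had 93.1 CPM with c-JunDN and 466 CPM with DR, 5.00-fold lower (4.32 to 5.80), and wild-type MEF had 330 CPM. Its relative Pdgfrb was level at 346 CPM with c-JunDN and 373 CPM with DR. Fgf7, which signals to epithelia, had 24.2 CPM with c-JunDN and 82.2 CPM with DR. Fgf10, of the same subfamily, had 13.5 CPM with c-JunDN and 29.5 CPM with DR. Over 35 measured genes of the list 5 were lower, 1 was higher and the median was -0.04.

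Among 27 measured genes of TGF-beta and activin signalling 4 were lower (14.8%, against 2.71% of all measured genes) and none was higher. Their median was -0.02. Inhbb, the beta-B chain of activin and inhibin, had 22.2 CPM with c-JunDN and 190 CPM with DR, 8.56-fold lower (6.43 to 11.6). The co-receptor gene Tgfbr3, betaglycan, had 48.4 CPM with c-JunDN and 255 CPM with DR, 5.27-fold lower (4.31 to 6.50), and the receptor gene Tgfbr2 had 171 CPM with c-JunDN and 365 CPM with DR. Fst, follistatin, which binds activin, had 48.4 CPM with c-JunDN and 102 CPM with DR.

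Of 30 measured Wnt genes 7 were higher (23.3%) and 3 lower (10%), against 3.25% and 2.71% of all measured genes. Wnt2b, Wnt5b and Frzb reached 5 CPM only through c-JunDN, so the share of higher genes gives a direction no support. All 41 genes of the list summed to 1590 CPM with c-JunDN and 1627 CPM with DR. The median was 0.18. Wnt2b had 32.0 CPM with c-JunDN and 2.90 CPM with DR, 11.0-fold higher (4.84 to 31.0). Wnt5b had 11.1 CPM with c-JunDN and a single count with DR, a ratio of 22.9 (3.78 to 938). Frzb, a secreted antagonist of Wnt proteins, had 50.0 CPM with c-JunDN and 4.35 CPM with DR, 11.5-fold higher (5.86 to 25.8). Rspo3, a secreted enhancer of Wnt signals, had 38.6 CPM with c-JunDN and 15.5 CPM with DR. Its receptors differed in the other direction. Lgr4 had 34.9 CPM with c-JunDN and 75.0 CPM with DR, and Lgr5 had 21.3 CPM with c-JunDN and 72.1 CPM with DR. Axin2, a common target of beta-catenin, was level at 6.15 CPM with c-JunDN and 4.84 CPM with DR.

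Nearly all glycolysis genes lay below 0. All 21 genes of the list were measured, and 19 lay below 0. At 2-fold 6 were lower (28.6%, against 2.71% of all measured genes), none was higher and the median was -0.71. Slc2a1, the glucose transporter GLUT1, had 31.2 CPM with c-JunDN and 99.6 CPM with DR, 3.20-fold lower (2.44 to 4.21). Slc16a3, an exporter of lactate that overlaps Csnk1d, had 15.2 CPM with c-JunDN and 58.5 CPM with DR, 3.85-fold lower (2.65 to 5.73). The enolase gene Eno1 had 305 CPM with c-JunDN and 713 CPM with DR. The pyruvate kinase gene Pkm2 had 783 CPM with c-JunDN and 1658 CPM with DR, and the aldolase gene Aldoa had 457 CPM with c-JunDN and 939 CPM with DR. Gapdh, often taken as a constant gene, had 1614 CPM with c-JunDN and 2417 CPM with DR, within 2-fold. The summed level of the list was 5350 CPM with c-JunDN and 9102 CPM with DR, against 9806 CPM in wild-type MEF, so that of these 3 the c-JunDN library was the one apart. Hypoxia response genes, many of them targets of the factor HIF-1, had 4 lower and none higher of 21 measured, with a median of -0.31. Ndrg1 had 11.1 CPM with c-JunDN and 51.7 CPM with DR, 4.67-fold lower (3.04 to 7.41), and Bnip3, a mitophagy receptor, had 16.4 CPM with c-JunDN and 65.8 CPM with DR. Vegfa, a further gene of that response, was level at 117 CPM in both libraries. Of 45 measured subunits of the respiratory chain none was called, and their median was 0.03.

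**Figure D4:**
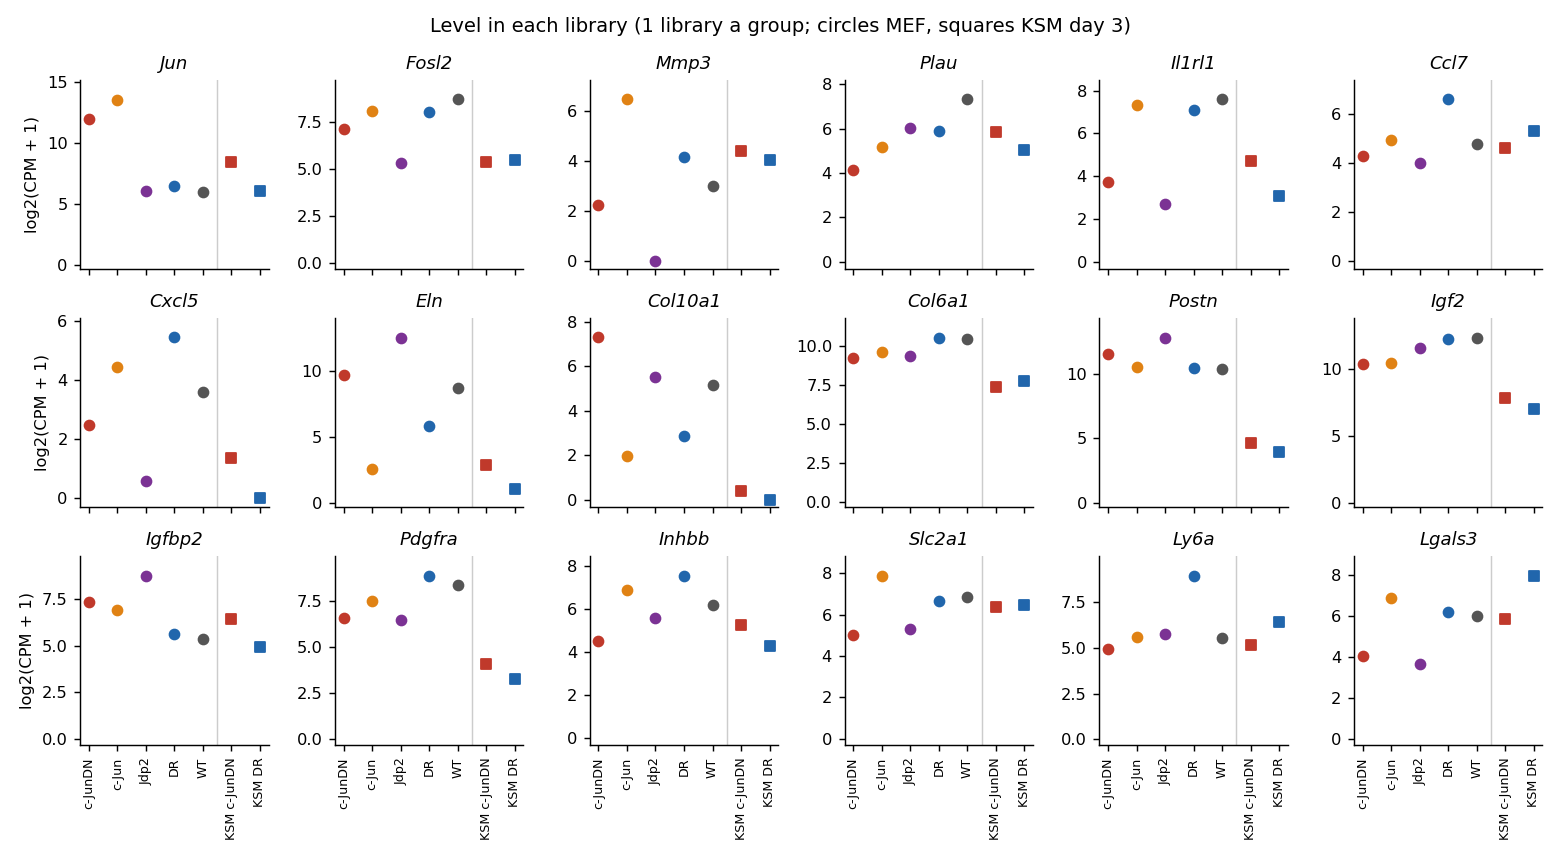
CPM of 18 genes on a log2(CPM + 1) axis in the 5 MEF libraries (c-JunDN, c-Jun, Jdp2, DR and wild type) and in the 2 reprogramming libraries (KSM with c-JunDN and with DR), 1 point a library. Eln is high with c-JunDN and highest with Jdp2, Igf2 is low with c-JunDN and c-Jun, and Ly6a is high with DR alone among the MEF libraries.

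Some of the widest gaps were at genes outside these groups. Ly6a, the surface antigen Sca-1, had 29.1 CPM with c-JunDN and 484 CPM with DR, 16.6-fold lower (13.0 to 21.4), and its relative Ly6c1 had 9.44 CPM with c-JunDN and 125 CPM with DR. Both belong to a family of near-identical genes, so that their counts are uncertain. For these 2 the DR library was the one apart, since wild-type MEF had 45.8 CPM of Ly6a and 6.22 CPM of Ly6c1. S100a4, a calcium-binding protein of motile fibroblasts, had 115 CPM with c-JunDN and 427 CPM with DR, 3.71-fold lower (3.24 to 4.26). Lgals3, galectin-3, had 15.6 CPM with c-JunDN and 71.6 CPM with DR. Steap4, a metalloreductase, had 0 counts with c-JunDN and 38 counts (18.4 CPM) with DR, at least 14.9-fold lower against a floor of 3 counts. Agtr2, a receptor of angiotensin II that is high in fetal mesenchyme, had 52.1 CPM with c-JunDN and 262 CPM with DR. Of 13 measured neural and glial markers 4 were lower and 4 higher. Ptprn, of dense-core vesicles, had 3.69 CPM with c-JunDN and 63.8 CPM with DR, and the neuronal tubulin gene Tubb3 had 11.9 CPM with c-JunDN and 45.5 CPM with DR. Gap43, of growth cones, had 12.7 CPM with c-JunDN and 44.0 CPM with DR. On the higher side Mtap2, a microtubule-binding protein of dendrites, had 71.4 CPM with c-JunDN and 28.0 CPM with DR. Among genes that were higher, Acta1, the actin of skeletal muscle, had 173 CPM with c-JunDN and 14.5 CPM with DR, 11.9-fold higher (8.22 to 17.9), while Myf5 and Myf6, regulators of muscle fate, had no counts in either library. P2rx3, an ATP-gated channel known from sensory neurons that overlaps Prg3, had 52.1 CPM with c-JunDN and 2.90 CPM with DR. Frem2, a protein of epidermal basement membranes, had 18.5 CPM with c-JunDN and a single count with DR, a ratio of 38.2 (6.51 to 1541). Ano4 had no counts with DR and 11.9 CPM with c-JunDN, at least 8.20-fold higher. Pth, parathyroid hormone, had no counts with DR and 9.03 CPM with c-JunDN, at least 6.22-fold higher.

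Of 14 measured retinoid genes 2 were higher, 2 lower and 10 within 2-fold. Rarb, a retinoic acid receptor that retinoic acid itself induces, had 14.4 CPM with c-JunDN and 1.45 CPM with DR. Dhrs3, a retinal reductase, had 84.1 CPM with c-JunDN and 14.5 CPM with DR. Lower were Cyp26b1, which degrades retinoic acid, with 4.10 CPM with c-JunDN and 23.7 CPM with DR, and Crabp1, which binds it in the cytosol, with 253 CPM with c-JunDN and 696 CPM with DR.

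Smaller sets added single genes. Of 16 measured adipocyte genes 5 were lower (31.25%, against 2.71% of all measured genes) and 1 was higher. Their median was -0.48, or 0.37 against wild-type MEF. Fabp4, a fatty acid carrier of fat cells, had a single count with c-JunDN and 13 counts with DR, a ratio of DR over c-JunDN of 15.3 (2.30 to 651). Apoe, a lipid carrier also made by macrophages, had 110 CPM with c-JunDN and 51.7 CPM with DR, against 7.92 CPM in wild-type MEF. Of 19 measured imprinted genes Igf2 and Mest were lower and Dio3 was higher. Dio3, which inactivates thyroid hormone, had 16.0 CPM with c-JunDN and 2.90 CPM with DR, 5.51-fold higher (2.32 to 15.9). Of 19 measured YAP and TEAD targets 2 were higher, Ctgf and Fjx1, and 1 was lower, F3, with a median of -0.12. Fjx1, a Golgi protein, had 51.3 CPM with c-JunDN and 11.6 CPM with DR, 4.42-fold higher (2.84 to 7.15). Of 34 measured semaphorin, ephrin and guidance genes 3 were higher and 1 was lower. Sema3d, a secreted semaphorin, had 20.9 CPM with c-JunDN and 4.84 CPM with DR, 4.33-fold higher (2.17 to 9.56), while the receptor gene Plxna2 had 28.7 CPM with c-JunDN and 67.7 CPM with DR. Pla2g4a, the phospholipase that frees arachidonic acid, had 115 CPM with c-JunDN and 55.6 CPM with DR, and Ptger4, a receptor of prostaglandin E2, had 2.05 CPM with c-JunDN and 11.1 CPM with DR. Of 31 measured genes of cholesterol and fatty acid synthesis 1 was lower, Dhcr7, with 29.5 CPM with c-JunDN and 71.1 CPM with DR, and the median was -0.04. Of 28 measured ion channel and purinergic receptor genes 7 were higher and 1 was lower, all but P2rx3 at no more than 11.9 CPM. Their median was 0.02, with 14 genes above 0 and 14 below. As with the macrophage list, counts over such low genes give a direction no support.

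Groups that define the state of the whole cell showed few calls or none. Only 5.96% of all measured genes were called, so lists of this size hold few calls in any case. Of 42 measured cell cycle genes none was called, with a median of -0.12 and 29 of them below 0. None of 22 measured p53 targets and inhibitors of cyclin-dependent kinases was called, although 19 lay above 0 and their median was 0.24. No gene was called among 19 of the unfolded protein response, 28 ATF4 targets and tRNA synthetases, 28 HOX cluster genes or 16 immediate early genes. Of 43 cytosolic ribosomal protein genes 1 was lower, Rps23, whose many processed copies make its count uncertain.

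Wild-type MEF, at 21415021 counts the deepest of the MEF libraries used here, placed the calls. Its level lay between the 2 libraries for 188 of the 358 higher and 141 of the 299 lower genes. It lay above both for 72 of the higher and 93 of the lower genes, and below both for 98 and 65. Against wild-type MEF, 173 of the higher genes were also 2-fold higher with c-JunDN and 143 of the lower genes were also 2-fold lower, while 9 and 20 differed by 2-fold in the opposite direction. Ctgf was called higher while wild-type MEF lay above both: it had 478 CPM with c-JunDN and 206 CPM with DR, against 1562 CPM in wild-type MEF.

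The libraries of c-Jun and Jdp2 have the same DR library as their control, so their values are given side by side only. Eln, higher with c-JunDN, had 5.00 CPM with c-Jun and 5963 CPM with Jdp2, against 54.6 CPM with DR. Mmp3 had 3.69 CPM with c-JunDN, 89.0 CPM with c-Jun and 0 counts with Jdp2, against 16.9 CPM with DR. Igf2 had 1316 CPM with c-JunDN, 1363 CPM with c-Jun and 3058 CPM with Jdp2, against 4881 CPM with DR. For glycolysis the median of the same 21 genes was -0.71 with c-JunDN, 0.48 with c-Jun and -1.28 with Jdp2, each against DR. For the 22 AP-1 target genes it was -0.27 with c-JunDN, 0.62 with c-Jun and -0.62 with Jdp2. For the 11 chemokines it was -1.05 with c-JunDN, -1.31 with c-Jun and -2.01 with Jdp2. Some chemokines reached 5 CPM only through DR, which can lower each median over DR, so these medians give a direction no support. With no minimum the median with c-JunDN was -0.07.

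A second pair of c-JunDN and DR libraries comes from MEF given the reprogramming factors Klf4, Sox2 and c-Myc (KSM) and taken at day 3, and it shares no library with the MEF pair. There 194 genes were higher (1.81% of 10715 measured) and 174 lower (1.62%). Jun had 352 CPM with c-JunDN and 67.0 CPM with DR in KSM, 5.26-fold higher (4.49 to 6.18), a smaller gap than the 44.8-fold in MEF. Of the 197 genes that were higher in MEF and measured in both pairs, 22 were higher in KSM too (11.2%, against 1.36% of the 10008 genes measured in both) and 8 were lower (4.06%, against 1.02%). Of the 206 genes that were lower in MEF, 19 were lower in KSM (9.22%, against 1.02%) and 10 were higher (4.85%, against 1.36%). Calls in the opposite direction were thus also above the background. Read from KSM, 16.2% of 136 higher genes were higher in MEF and 7.35% lower, and of 102 lower genes 18.6% were lower in MEF and 7.84% higher, against 1.97% higher and 2.06% lower among all 10008. Over the 10008 genes the changes of the pairs had a Pearson correlation of 0.094, and 0.145 over 2987 genes with 50 CPM or more in all 4 libraries; genes of 1 library are not independent, and no p is given.

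Genes with the same direction in both pairs included several of those above. Igfbp2 had 82.9 CPM with c-JunDN and 29.1 CPM with DR in KSM, 2.85-fold higher (2.21 to 3.72). Col2a1 had 128 CPM with c-JunDN and 40.1 CPM with DR there, and Frem2 had 83.6 CPM with c-JunDN and 30.6 CPM with DR. Igfbp6 had 10.4 CPM with c-JunDN and 48.6 CPM with DR in KSM, 4.69-fold lower (3.18 to 7.09). Lgals3 had 56.2 CPM with c-JunDN and 251 CPM with DR in KSM, 4.47-fold lower (3.79 to 5.30), beside the 4.59-fold (3.20 to 6.74) in MEF. Eps8, a regulator of actin, had 69.8 CPM with c-JunDN and 202 CPM with DR in KSM, and 24.2 CPM with c-JunDN and 104 CPM with DR in MEF. Ly6a was lower in KSM too, with 33.9 CPM with c-JunDN and 83.6 CPM with DR. Bnip3 and Slc16a3 were lower in both pairs, but of the 21 glycolysis genes Slc16a3 alone was called in KSM, where the median was -0.06. In KSM 3 of 10 fibroblast markers were higher, Dcn, Lum and Thy1, and the median of the 10 was 0.73; Dcn had 30.5 CPM with c-JunDN and 12.5 CPM with DR in KSM, and 285 CPM with c-JunDN and 318 CPM with DR in MEF. The keratin gene Krt19 had 37.4 CPM with c-JunDN and 142 CPM with DR in KSM, 3.81-fold lower (3.09 to 4.72), and 3.28 CPM with c-JunDN and 11.1 CPM with DR in MEF.

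**Figure D5:**
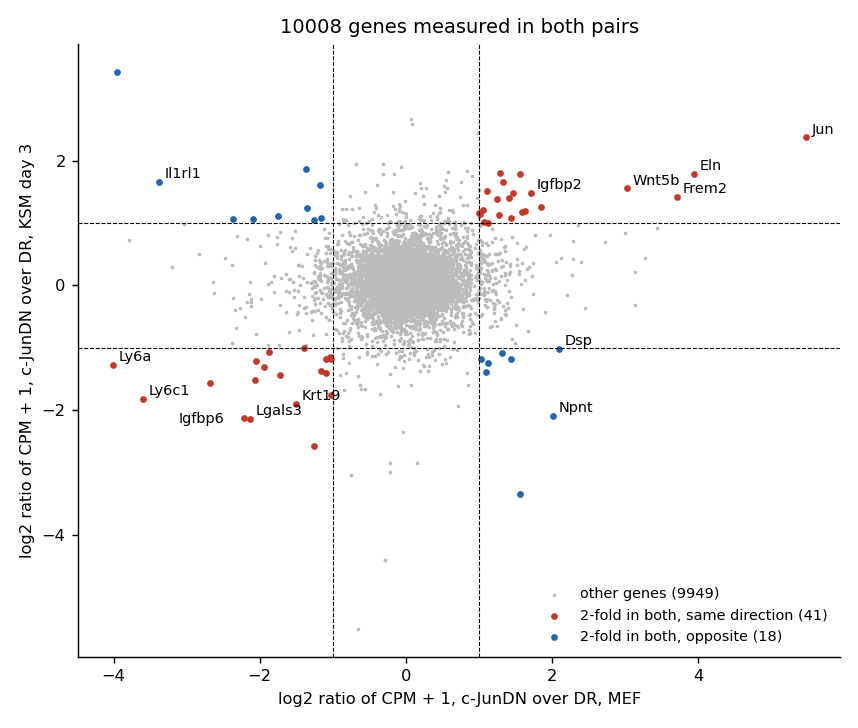
Log2 change of c-JunDN over DR in MEF (x axis) against the same in KSM (y axis), for the 10008 genes measured in both pairs, 1 point a gene. Dashed lines mark 2-fold, filled points are genes past 2-fold in both, and Jun, Eln, Igfbp2 and Frem2 lie at the upper right, Ly6c1, Lgals3 and Igfbp6 at the lower left.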

How the data were processed

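RNA libraries of MEF with c-JunDN and with DR were compared, 1 library each. Per the labels' protocols, Trizol was used to extract RNA and a TruSeq RNA kit to prepare libraries. The authors deposited expected counts per gene from RSEM 1.1.21 on mm9, per the submitters' processing notes, with RefSeq gene names, and beside them the fraction of transcripts per gene, which was used as an alternative. Whether counting used strand is not given in the sources used here.

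Expected counts were rounded to whole numbers and scaled with the TMM factors of edgeR 4.0.16 (R 4.3.3) over 12 RNA libraries. The minimum was 5 CPM in 1 of the 2 libraries, the pseudocount 1 and the call 2-fold. Intervals of 95% are exact conditional binomial intervals of 2 counts. A count of 0 was set to a floor of 3 counts, and only a bound is given. The calculation was tested on simulated data with known changes and counting error only. Those changes were larger than 2-fold and lay in genes at 20 CPM or more over the 2 libraries, so recovery of changes at lower levels was not tested. Motifs were searched with Python 3.11.15 in RefSeq windows of GRCm38.p6, which matched 8819 of the 11030 measured genes.

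Of 1415 names in 58 gene lists, 1400 were found as written and 9 through a synonym. The genes named are all AP-1 genes, up to 8 called and 3 other members of each list, the 25 highest and 25 lowest genes, the genes past 2-fold in both pairs, the 15 largest differences in CPM and the genes nearest the 2-fold line. Gene models without a name, and pseudogenes, are not named. Not every gene this rule selects is reported here. Agtr2, Axin2, Cd163, Il6, Isg15, Lum, Ms4a7, Nfkbiz, Pf4, Ptgs2, Socs3, Thy1, Vegfa and the markers given as having no counts are not covered by it, and were picked with their values already seen. The members and lists were chosen with earlier results of these data known. Alternatives were DESeq2 1.42.0 size factors, total counts, unrounded counts, the deposited fraction, other minimums, pseudocounts and folds, and wild-type MEF in place of DR.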

Additional observations from a re-analysis of the deposited data

Results flagged for a closer look

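In 10 named genes the change with c-JunDN pointed one way in MEF and the other way in KSM, at 2-fold or more in each pair. With 1 library a side the difference between the pairs was not tested, and it is given as the log2 change in MEF minus that in KSM. These are the 10 widest of 14 such genes once unnamed gene models are left out, and 18 with them.

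Il1rl1, the interleukin-33 receptor, differed by -5.03: in MEF it had 12.3 CPM with c-JunDN and 137 CPM with DR, and in KSM 25.4 CPM with c-JunDN and 7.36 CPM with DR. Npnt, nephronectin, differed by 4.11, with 55.8 CPM with c-JunDN and 13.1 CPM with DR in MEF, and 14.8 CPM with c-JunDN and 66.3 CPM with DR in KSM. Dsp, desmoplakin of epithelial desmosomes, differed by 3.11. It had 7.38 CPM with c-JunDN and 0.967 CPM with DR in MEF, where it was near the limit of measurement, and 265 CPM with c-JunDN and 538 CPM with DR in KSM. Pde5a, a phosphodiesterase of cyclic GMP, differed by 2.63, with 51.7 CPM with c-JunDN and 18.4 CPM with DR in MEF, and 14.5 CPM with c-JunDN and 34.2 CPM with DR in KSM. Cobl, an actin nucleator, differed by 2.49, with 11.5 CPM with c-JunDN and 4.84 CPM with DR in MEF, and 24.8 CPM with c-JunDN and 67.0 CPM with DR in KSM. Sned1 differed by -3.15, with 18.5 CPM with c-JunDN and 81.7 CPM with DR in MEF, and 7.23 CPM with c-JunDN and 2.94 CPM with DR in KSM. Plekha6 differed by -3.22, with 1.64 CPM with c-JunDN and 5.80 CPM with DR in MEF, and 38.6 CPM with c-JunDN and 9.94 CPM with DR in KSM. Olr1 differed by -3.42, Myo7a by -2.87 and Bai2 by -2.59. These last 3 were lower in MEF and higher in KSM, at no more than 20.3 CPM in any of the 4 libraries.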

How the results depend on the processing

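With 1 library a group the limits lie in counting error and in differences between cultures that no library here can show, and leaving out a library was not possible. No paired analysis was possible because each group has 1 library and no result comes from a test. Depth limits genes under about 5 CPM, and those at 0 have bounds only.

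Main counts in MEF were 358 higher and 299 lower, and in KSM 194 higher and 174 lower. They stayed within 1.5 times under DESeq2 size factors (342 and 306 in MEF, 145 and 186 in KSM), total counts, unrounded counts, the deposited fraction, a pseudocount of 0.5 and when the counting interval also had to exclude 1. With no minimum they were 672 and 466 in MEF, and 459 and 303 in KSM. With a pseudocount of 5 they were 176 and 156 in MEF, and 46 and 95 in KSM. A minimum of 10 CPM left 92 higher genes in KSM. At 1.5-fold they were 908 and 802 in MEF, and 701 and 500 in KSM, and at 3-fold 122 and 96 in MEF, and 45 and 56 in KSM. These follow from more or fewer genes passing a looser or stricter rule. Against wild-type MEF 1170 genes were higher and 1205 lower, and the cause was not tested. Of 128 called genes named here, 125 kept their call with DESeq2 size factors and with unrounded counts, 127 with total counts, 106 with a pseudocount of 5, and 73 of 123 against wild-type MEF. Of 28 list medians 1, that of chemokines, moved with no minimum, and 13 moved against wild-type MEF. There the median was 0.37 for adipocyte, 3.30 for interferon and 0.54 for respiratory chain genes, -0.18 for chemokines, -0.16 for basement membrane genes and between -1.02 and -0.40 for the other 8 lists.

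Against wild-type MEF some called genes turned direction, with log2 changes of c-JunDN of 0.39 for Agtr2, 0.33 for Cebpb, 1.51 for Cebpd, 3.87 for Cxcl10, 0.49 for Efemp1, 0.75 for Gbp2, 0.53 for Ly6c1, 0.34 for Podn, 0.60 for Sned1 and 0.09 for Socs3, all lower against DR. The genes higher against DR that turned were Cobl at -0.16, Col11a1 at -0.43, Col2a1 at -0.78, Ctgf at -1.71, Dsp at -0.41, Flt1 at -0.15, Pde5a at -0.0048 and Pla2g4a at -0.82. The cause was not tested. Counted per promoter window, an alternative chosen after seeing the data, the heptamer share of measured genes was 3.64% in place of 4.39%.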
